A study of Mus musculus with 3 samples.

Results

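The genes described here are 9 members of the epidermal growth factor (EGF) family that were followed by gene symbol, out of 28693 genes counted in single cells of mouse abdominal skin. The ligands were Areg (amphiregulin), Ereg (epiregulin), Hbegf (heparin-binding EGF-like growth factor), Tgfa (transforming growth factor alpha), Epgn (epigen) and Btc (betacellulin). The receptors were Egfr, the receptor bound by all of these ligands, Erbb2, which has no known ligand of its own and pairs with the other receptors, and Erbb3, which binds neuregulins and has little kinase activity of its own. EGF family ligands are made as membrane-anchored precursors, which proteases such as ADAM17 cut from the cell surface. The released ligand binds a receptor on the same cell or a neighbour, receptors pair, and the RAS and MAP kinase relay switches on early response genes together with feedback inhibitors. In epidermis this signalling is known for keeping basal keratinocytes dividing, for closing wounds and for shaping the hair follicle.

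The study asked how abdominal skin changes around pregnancy. Each of 3 stages was 1 library, made with droplet capture and 3′ tag sequencing of dissociated abdominal dermis. The mice were C57BL/6, aged 8 to 12 weeks and of genotype Col1a2creERT2; R26H2B EGFP, in which a collagen gene promoter active in fibroblasts drives a tamoxifen-activated Cre that switches on a fluorescent histone. The non-pregnant control (NP) received tamoxifen for 3 days and was sampled 48 days later, whereas the mice sampled on gestation day 16 (dpc16) and on postpartum day 42 (dpp42) received tamoxifen during pregnancy. All 3 stages thus carried the same alleles and had received tamoxifen, and the cells were captured without sorting for the fluorescent label. The number of mice behind each library is not given in the sources used here, so a stage and its library cannot be told apart. Every interval below is a 95% interval for counting error only, and no difference between stages was tested across animals.

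After requiring at least 200 genes and at most 10% mitochondrial counts, 1289 cells remained for NP, 3652 for dpc16 and 1081 for dpp42, with medians of 3119, 4300.5 and 3252 molecules (UMIs, unique molecular identifiers) per cell. The study's design text states 1289, 3650 and 1081 cells. Between 1 and 6 barcodes were shared by any pair of libraries. Although the tissue was labelled dermis, 1025, 1816 and 751 of these cells carried keratinocyte markers at NP, dpc16 and dpp42, and 97, 1079 and 112 carried fibroblast markers. Cells were grouped without using the 9 genes and named from marker lists, so that each name below means "like" that type. Keratinocytes fell into basal, cycling, spinous, granular, infundibulum (upper follicle opening), follicle bulge and sebocyte cells. Another 2 keratinocyte clusters had no layer name: cluster 12 was led by Pinlyp, Krt6a and Krt71, and cluster 18 by Serpinb2, Ifi202b and Fosl1. The granular name rests on leading genes such as Lor and Flg2, beside which the spinous genes Krt10 and Krtdap also led. With a finer clustering (Leiden resolution 2) 34 of the 230 granular cells kept that name and 196 took the spinous name. The bulge class joins cluster 0 and cluster 16. Cluster 16 scored highest on the upper follicle list and took the bulge name from its leading genes, among which Lgr5 was the only bulge marker. Its score was 2.15 on the bulge list and 2.47 on the basal list. The layers did not contribute equally to each library: spinous cells made up 27.1%, 7.27% and 17.2% of keratinocytes at NP, dpc16 and dpp42, and bulge cells 13.0%, 21.5% and 19.4%.

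Of the 9 genes, 4 ligands lie together on chromosome 5 within 375.5 kb (GRCm38, GENCODE M21): Epgn (ENSMUSG00000035020, chr5:91027464-91035215, plus strand), Ereg (ENSMUSG00000029377, chr5:91074622-91093646, plus strand), Areg (ENSMUSG00000029378, chr5:91139599-91148432, plus strand) and Btc (ENSMUSG00000082361, chr5:91357261-91402994, minus strand). Tgfa (ENSMUSG00000029999) lies at chr6:86195223-86275719 on the plus strand and Hbegf (ENSMUSG00000024486) at chr18:36504927-36515805 on the minus strand. Egfr (ENSMUSG00000020122, chr11:16752203-16918158) and Erbb2 (ENSMUSG00000062312, chr11:98412470-98437716) lie on the plus strand of chromosome 11, and Erbb3 (ENSMUSG00000018166, chr10:128567523-128589652) on the minus strand of chromosome 10.

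Levels are given as UMIs per 1000000 UMIs (CPM) of the cells in question. The method counts 1 tag per captured molecule, so levels of different genes were compared on this scale without a length correction. Keratin RNA was also counted outside keratinocytes, and whether free RNA or doublets brought it was not tested. The keratins Krt14, Krt5, Krt1 and Krt10 together stood in fibroblasts at 7.69%, 6.93% and 8.89% of their keratinocyte level at NP, dpc16 and dpp42, and in blood endothelial cells at 6.71%, 3.90% and 3.47%. A member at such a share of its own keratinocyte level was read as background.

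The RefSeq promoter table (GRCm38.p6) matched Areg, Tgfa, Epgn, Btc, Egfr and Erbb2. The 250 bases before the gene start are shown for Areg, a ligand with a large step between layers, and for Egfr, a receptor whose level moved the same way in most layers. Erbb2 and Erbb3 did so as well at dpc16 over NP. The Areg window is chr5:91139349-91139598 and the Egfr window chr11:16751953-16752202, both on the plus strand. Capitals mark matches, on either strand, to the motifs searched, which were the cAMP response element TGACGTCA, the AP-1 site TGANTCA, the TATA box with the letters TATAAA and the E-box with the letters CACGTG.
Areg: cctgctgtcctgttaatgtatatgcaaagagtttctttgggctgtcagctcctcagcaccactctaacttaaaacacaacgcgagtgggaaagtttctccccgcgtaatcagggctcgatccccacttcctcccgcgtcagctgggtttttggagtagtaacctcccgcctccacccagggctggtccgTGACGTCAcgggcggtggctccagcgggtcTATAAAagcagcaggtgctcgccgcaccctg
Egfr: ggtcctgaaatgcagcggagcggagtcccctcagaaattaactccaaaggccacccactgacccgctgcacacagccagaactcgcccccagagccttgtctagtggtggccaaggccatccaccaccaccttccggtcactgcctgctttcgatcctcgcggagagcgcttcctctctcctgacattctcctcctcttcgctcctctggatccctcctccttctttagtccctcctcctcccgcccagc
The Areg window held 1 TGACGTCA, whose first base is at -61 from the gene start, and 1 TATAAA, whose first base is at -31. These letters occurred in 1.55% and 12.4% of the 32851 promoter windows of this length, while TGANTCA and CACGTG occurred in 6.75% and 6.02%. The Egfr, Tgfa, Btc and Erbb2 windows held none of the 4 motifs. The Epgn window, chr5:91027267-91027516, held TATAAA at -86 from the RefSeq start. This window and that of Erbb2 run past the GENCODE starts given above, so positions in them do not count from those starts. A match is a description of the letters and not of binding, and the motifs do not overlap within these windows.

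Among ligands, Areg was highest, of the named keratinocyte layers, in infundibulum and granular cells. Over the 3 libraries Areg stood at 158 CPM (134 to 185) in infundibulum cells and 130 CPM (119 to 143) in granular cells, 2 intervals that overlap, then at 25.2 CPM in bulge, 17.3 CPM in spinous, 7.70 CPM in cycling, 3.56 CPM in basal and 0.971 CPM in sebocyte cells. The granular over basal step was present in each library. Infundibulum cells held 244 UMIs of all ligands together, of which 154 were Areg. Of the 244, 210 came from dpc16. Areg in granular cells was 142, 159 and 73.2 CPM at NP, dpc16 and dpp42, against 0, 5.36 and 1.93 CPM in basal cells, the 0 at NP allowing up to 4.24 CPM. Within the granular class it was 98.5 CPM (75.4 to 127) in the 34 cells that kept the name at the finer clustering and 137 CPM (124 to 151) in the other 196. Outside keratinocytes, Areg was highest in T, NK and innate lymphoid cells, at 978 CPM (832 to 1141) over 37 cells. These few cells held the 4 keratins at 18.6%, 84.2% and 5.57% of the keratinocyte level at NP, dpc16 and dpp42, and Areg at 979%, 1966% and 5744%. Areg stood at 74.2 CPM in the 63 macrophages, all from dpc16. Areg in fibroblasts at dpc16 was 7.91% (4.73 to 12.5) of its keratinocyte level, a share like that of the keratins.

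Ereg, a neighbour of Areg on chromosome 5, was counted almost entirely in granular cells. Granular cells gave 315 of the 334 keratinocyte UMIs of Ereg, and the level over the 3 libraries was 85.6 CPM (76.4 to 95.6) there against 6.14 CPM (2.25 to 13.4) in infundibulum cells and 0.881 CPM in spinous cells. In the 669 bulge cells no Ereg UMI was seen, which allows up to 1.26 CPM (3 UMIs). Within the granular class Ereg was 389 CPM (342 to 442) in the 34 cells that kept the name at the finer clustering and 24.2 CPM (19.0 to 30.4) in the other 196. Few cells carried it: 22 of 93 granular cells at NP, 21 of 78 at dpc16 and 11 of 59 at dpp42 had an Ereg UMI. The 3 granular cells with the most Ereg UMIs held 33 of 59, 74 of 166 and 81 of 90 in those libraries. Granular cells were also the deepest, with medians of 11566, 19022 and 15492 UMIs per cell.

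Btc had the same layer and the same concentration in few cells. Btc stood at 36.7 CPM (30.8 to 43.4) in granular cells over the 3 libraries, at 8.42 CPM (6.15 to 11.3) in fibroblasts, at 6.14 CPM (2.25 to 13.4) in infundibulum cells and at 2.94 CPM in spinous cells. No Btc UMI was seen in the 751 basal or the 258 blood endothelial cells, which allows up to 0.970 CPM and 2.82 CPM. Within the granular class Btc was 187 CPM (155 to 225) in the 34 cells named granular at both clusterings and 6.21 CPM (3.74 to 9.70) in the other 196. A single granular cell held 47 of the 57 granular Btc UMIs at NP, another 35 of 59 at dpc16 and another 6 of 19 at dpp42. In fibroblasts at dpc16 Btc stood at 98.7% of its keratinocyte level, far from the share of the keratins.

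Hbegf, which binds heparan sulphate as well as Egfr and is known for its part in wound closure, was high in several cell groups. Over the 3 libraries it stood at 364 CPM (329 to 402) in blood endothelial cells, at 291 CPM (270 to 314) in bulge cells and at 284 CPM (251 to 320) in cluster 18. It was 463 CPM (326 to 638) in 21 Schwann cells, with 34 of the 37 UMIs at dpc16. Lower levels were 190 CPM (137 to 258) in macrophages, 120 CPM (109 to 132) in granular cells, 57.1 CPM in cycling, 52.8 CPM in spinous and 43.3 CPM in basal cells. The endothelial level was above the share seen for keratins: Hbegf in blood endothelial cells was 461%, 335% and 690% of its keratinocyte level at NP, dpc16 and dpp42. Lymphatic endothelial cells held 18.9 CPM (11.2 to 29.9). Within the bulge class, Hbegf differed between the 2 clusters: cluster 16, led by Nppc, Lgr5 and Sgk1, held 537 CPM (493 to 584) and cluster 0, led by Postn, Ptn and Cxcl14, held 108 CPM (91.3 to 127). The high bulge level thus came mostly from cluster 16, the cluster with the less certain bulge name.

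Epgn was highest in cluster 18 and, of the named layers, in bulge and basal cells. It was among the leading genes of cluster 18, at 826 CPM (769 to 886), beside Serpinb2, Fosl1 and Krt16, which are known to be raised in stressed or wounded epidermis. In named layers it stood at 169 CPM (153 to 187) in bulge, 129 CPM (116 to 142) in basal, 101 CPM (85.6 to 118) in cycling, 85.6 CPM (76.4 to 95.6) in granular and 58.4 CPM (50.6 to 67.1) in spinous cells, the cycling interval overlapping both the basal and the granular one. Infundibulum cells had 13.3 CPM and sebocytes 3.16 CPM. The basal level came from 1 of the 2 basal clusters: cluster 3, led by Ccl27a and Krt5, held 387 of the 398 basal Epgn UMIs, at 257 CPM (232 to 284), and cluster 5, led by Akr1c18 and Slpi, 11 UMIs, at 6.95 CPM (3.47 to 12.4). The bulge level likewise came from cluster 16, at 367 CPM (330 to 406), more than from cluster 0, at 22.0 CPM (14.9 to 31.5).

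Tgfa was scarce in every class. It was highest in infundibulum cells, at 31.7 CPM (21.6 to 45.0) over the 3 libraries, and stood at 15.6 CPM (11 to 21.4) in bulge, 13.2 CPM (7.2 to 22.1) in blood endothelial, 12.6 CPM (6.51 to 22.0) in lymphatic endothelial and 9.52 CPM (6.63 to 13.2) in granular cells, whose intervals overlap each other. Basal cells held 2.91 CPM (1.33 to 5.53).

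**Figure D1:**
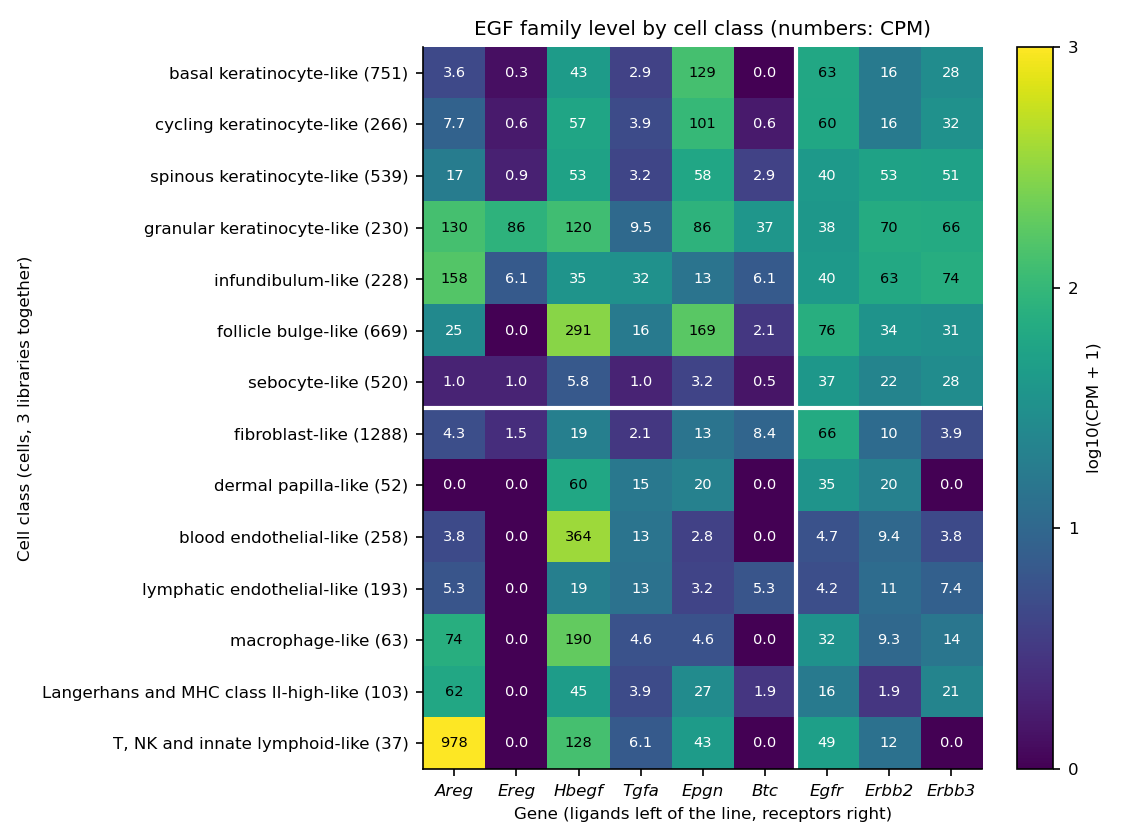
Heat map of the level of each gene (columns, ligands left of the white line and receptors right) in each cell class (rows, with the number of cells of the 3 libraries together); numbers are CPM and colour is log10(CPM + 1). Ereg stands out in granular cells at 86 CPM. Areg is highest in T, NK and innate lymphoid cells, ahead of infundibulum and granular cells, the last at 130 CPM. Hbegf stands out in bulge and blood endothelial cells at 291 and 364 CPM, and Egfr is low in the endothelial classes at 4.7 and 4.2 CPM.

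Among receptors, Egfr and its partners differed in their layer order. Over the 3 libraries together Egfr was highest in bulge cells, at 75.7 CPM (65.0 to 87.6), fibroblasts, at 66.5 CPM (59.7 to 73.7), basal cells, at 62.8 CPM (54.2 to 72.2), and cycling cells, at 60.3 CPM (48.7 to 73.8), 4 classes whose intervals overlap. The order differed between libraries, and bulge cells were above basal cells only at dpc16. Fibroblasts, of which 1079 of 1288 came from dpc16, stood at 132, 61.6 and 85.2 CPM at NP, dpc16 and dpp42. At NP this was above every named keratinocyte layer. Over the 3 libraries Egfr was lower in spinous, granular and sebocyte cells, at 39.6, 37.5 and 37.4 CPM. Within the basal class the order between clusters was the reverse of that for Epgn: Egfr stood at 41.8 CPM (32.1 to 53.5) in cluster 3 and at 82.7 CPM (69.2 to 98.2) in cluster 5. Egfr was close to absent from blood and lymphatic endothelial cells, at 4.70 CPM (1.53 to 11) and 4.20 CPM (1.14 to 10.8). Fibroblast Egfr was above the share seen for keratins: at dpc16 it was 147% (127 to 171) of the keratinocyte level.

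Erbb2 and Erbb3 were higher in the differentiating layers. Erbb2 stood at 69.6 CPM (61.3 to 78.7) in granular, 63.5 CPM (48.7 to 81.4) in infundibulum and 53.1 CPM (45.7 to 61.5) in spinous cells, against 15.9 CPM (11.7 to 21) in basal and 16 CPM (10.4 to 23.7) in cycling cells. Erbb3 stood at 73.7 CPM (57.7 to 92.8) in infundibulum, 66.3 CPM (58.3 to 75.2) in granular and 51.4 CPM (44.1 to 59.6) in spinous cells, against 28.1 CPM (22.5 to 34.7) in basal cells. The granular over basal step held in each library for both genes: Erbb2 was 75.9, 52.7 and 86.6 CPM in granular cells at NP, dpc16 and dpp42 against 29.7, 9.65 and 19.3 CPM in basal cells, and Erbb3 was 71.2, 60.3 and 69.0 CPM against 28.3, 23.6 and 44.4 CPM. In fibroblasts Erbb3 was at 3.93 CPM, and at dpc16 that was 8.47% of its keratinocyte level, near the share of the keratins.

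Summed over the members, the classes differed in the balance of ligand and receptor RNA. Granular cells held 468 CPM of the 6 ligands and 173 CPM of the 3 receptors, bulge cells 504 and 140 CPM, basal cells 179 and 107 CPM, spinous cells 136 and 144 CPM, and infundibulum cells 250 and 177 CPM. Sebocytes had the reverse balance, with 12.4 CPM of ligands and 87.2 CPM of receptors, and so had fibroblasts, with 47.9 and 80.7 CPM. Blood endothelial cells held 384 CPM of ligands and 17.9 CPM of receptors. With every cell thinned to 1000 UMIs, 25.7% of granular, 21.2% of bulge, 11.6% of basal and 1.54% of sebocyte cells had a ligand UMI, and 12.6%, 12.9%, 9.59% and 9.04% a receptor UMI. Without thinning, an Areg UMI was seen in 7.91% of keratinocytes, against 1.55% of blood endothelial cells, of which 43.0% had a UMI of Krt14.

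The mix of ligands separated the layers. Of the ligand UMIs, Epgn made up 72.0% (68.0 to 75.7) in basal and 59.0% in cycling cells, and Hbegf 57.8% (55.0 to 60.7) in bulge and 94.9% (92.2 to 96.8) in blood endothelial cells. Areg made up 63.1% (56.7 to 69.2) in infundibulum cells, with 210 of their 244 ligand UMIs from dpc16. The granular class had the most even mix, with Areg at 27.9%, Hbegf at 25.7%, Ereg at 18.3%, Epgn at 18.3% and Btc at 7.84%. It pools cells with unlike mixes. The 34 cells that kept the name at the finer clustering held 241 UMIs of Ereg, 154 of Hbegf, 116 of Btc, 63 of Epgn and 61 of Areg. The other 196 held 419 of Areg, 289 of Hbegf, 252 of Epgn, 74 of Ereg and 19 of Btc.

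**Figure D2:**
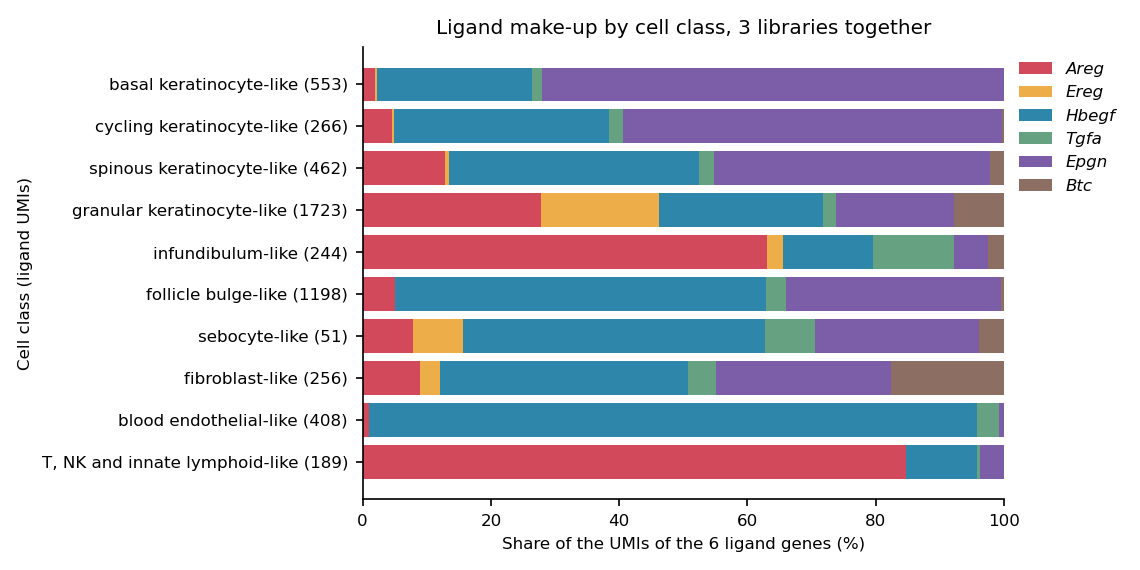
Stacked bars of the share (%, horizontal axis) that each of the 6 ligand genes has in the ligand UMIs of a cell class (rows, with the number of ligand UMIs of the 3 libraries together). Epgn fills 72.0% of the basal bar, Hbegf 94.9% of the blood endothelial bar and Areg 63.1% of the infundibulum bar.

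Stages were then compared as libraries. A gene counted as measured in a comparison with at least 10 CPM in 1 of its libraries and at least 20 UMIs over both, and was called higher or lower when the ratio was at least 1.5 either way with an interval that excluded 1. Over all keratinocytes, Areg was 50.2, 50.3 and 26.3 CPM at NP, dpc16 and dpp42, Ereg 12.1, 15.2 and 22.2 CPM, and Hbegf 68.2, 116 and 48.7 CPM. Epgn was 120, 126 and 50.1 CPM, Btc 12.7, 6.79 and 4.80 CPM, and Tgfa 7.45, 7.74 and 10.3 CPM. Among receptors, Egfr was 55.5, 41.8 and 62.9 CPM, Erbb2 52.5, 26.5 and 49.6 CPM, and Erbb3 54.7, 37.1 and 48.2 CPM. The 3 receptors thus had their lowest keratinocyte level at dpc16, Hbegf had its highest there, and Areg and Epgn stood alike at NP and dpc16 and lower at dpp42. For Epgn these pooled levels also carry the mix of clusters. Cluster 18 gave 774 of the 2277 keratinocyte UMIs of Epgn over the 3 libraries and held 19, 135 and 11 cells at NP, dpc16 and dpp42.

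**Figure D3:**
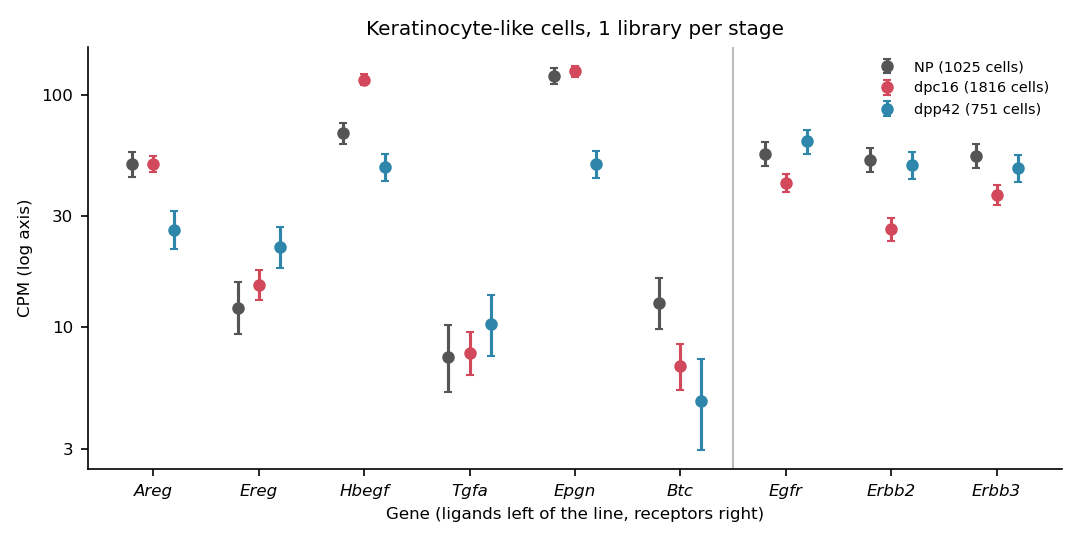
Level (CPM, log axis) of each gene in keratinocytes of the NP, dpc16 and dpp42 libraries; points are 1 library each and bars are 95% counting intervals. The 3 receptors are lowest at dpc16, and Areg and Epgn are lowest at dpp42, at 26.3 and 50.1 CPM.

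At dpc16 over NP, 8 members were measured in keratinocytes. Hbegf was higher, by 1.70-fold (1.51 to 1.92), and Erbb2 lower, by 1.99-fold (1.68 to 2.35). Btc was lower by 1.88-fold (1.33 to 2.64), a value on which 1 NP cell with 47 of the 65 UMIs weighs. With at most 5% mitochondrial counts the direction of Btc turned, to a log2 ratio of 1.7, and with layers weighted equally it was 0.02. Over all 7925 measured genes 8.90% were called higher and 21.9% lower, so the members' share of calls lay near that of all genes. The median log2 ratio was -0.20 for the members and -0.15 for all genes. Erbb3 and Egfr, at ratios of 0.678 (0.582 to 0.791) and 0.753 (0.649 to 0.875), stayed inside the 1.5-fold limit with intervals below 1. Areg and Epgn had ratios of 1.00 (0.864 to 1.17) and 1.05 (0.952 to 1.15), and Ereg 1.25 (0.933 to 1.70).

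Hbegf was higher at dpc16 than at NP in 6 of 7 layers, with at least 20 UMIs in 6 of the 7. Of genes with at least 20 UMIs in each layer, 15.1% were higher in at least 6. The size of the difference varied between keratinocytes. Hbegf in bulge cells was 367 CPM at dpc16 against 191 CPM at NP, and in cluster 16 it was 814 CPM against 299 CPM, a ratio of 2.72 (2.13 to 3.50). In granular cells it was 174 CPM against 94.9 CPM, a ratio of 1.83 (1.47 to 2.30), with 100 of the 251 dpc16 UMIs in 3 cells. In cycling cells it was 81.6 CPM against 28.4 CPM, a ratio of 2.87 (1.48 to 6.23), and in spinous cells 77.6 CPM against 54.4 CPM, a ratio of 1.43 (1.04 to 1.97). In basal cells it was 48.2 CPM against 52.3 CPM. Without clusters 12, 16 and 18, a choice made after the values were seen, the keratinocyte log2 ratio of Hbegf was 0.37, against 0.76 with them, and the call ended.

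At dpp42 over NP, 9 members were measured in keratinocytes, and 3 ligands were lower and 1 higher, against 3.08% lower and 4.42% higher among 7948 genes. Epgn was lower by 2.40-fold (2.05 to 2.81), Areg by 1.91-fold (1.53 to 2.40) and Btc by 2.65-fold (1.60 to 4.57). The Btc value rests on the same NP cell, and with at most 5% mitochondrial counts its log2 ratio turned to 0.83. Ereg was higher by 1.83-fold (1.31 to 2.55), with 81 of its 97 dpp42 UMIs in 3 cells. Its log2 ratio of 0.86 fell to 0.11 with cells thinned to 1000 UMIs and to 0.33 when each cell weighed equally. With at most 5% mitochondrial counts the Areg log2 ratio was -0.51, against -0.93, and no longer called. The receptors Egfr, Erbb2 and Erbb3 were near their NP level, at ratios of 1.13, 0.945 and 0.882. Hbegf stood at 0.714 and Tgfa at 1.38 times the NP level. The median log2 ratio was -0.18 for the members and 0.01 for all genes.

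At dpp42 over dpc16, 2 of 8 measured members were higher and 3 lower, where 22.0% of 7999 genes were higher and 8.40% lower. Erbb2 was higher by 1.88-fold (1.57 to 2.24) and Egfr by 1.51-fold (1.29 to 1.75), just past the limit. Epgn was lower by 2.51-fold (2.18 to 2.91), Hbegf by 2.38-fold (2.05 to 2.76) and Areg by 1.91-fold (1.56 to 2.36). Egfr lost its call under 5 of 16 alternative settings, with log2 ratios from 0.42 to 0.75, whereas Epgn and Hbegf kept theirs under 16 of 16. The log2 ratio of Epgn, -1.33 as reported, ranged from -1.5 to -0.63 under these settings. Cluster 18, where Epgn was highest, held 135 cells at dpc16 and 11 at dpp42. The median log2 ratio was 0.40 for the members and 0.17 for all genes. The 3 comparisons share their libraries in pairs and are not independent of each other.

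**Figure D4:**
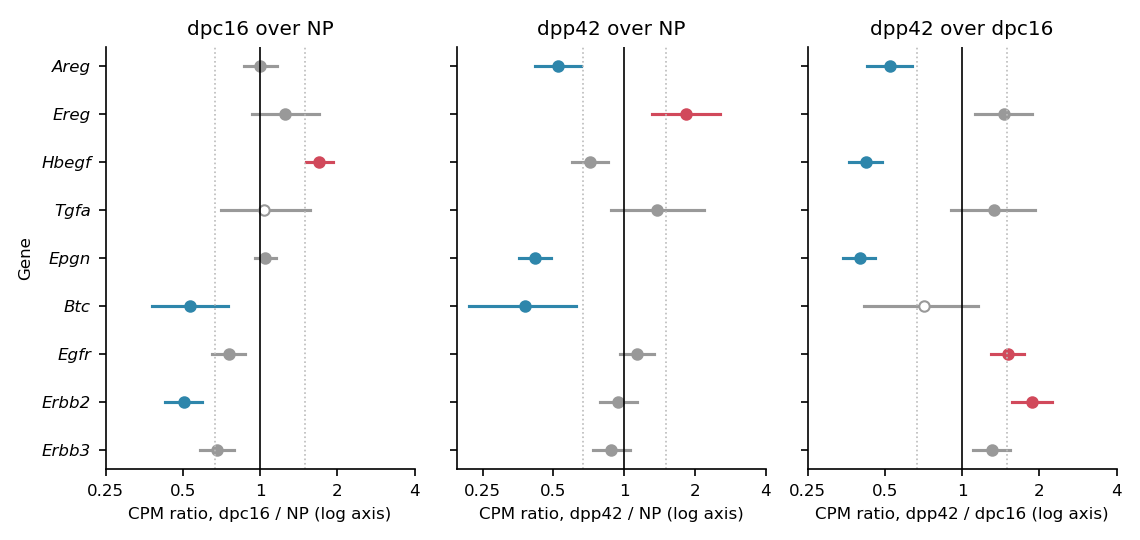
Ratio of CPM in keratinocytes (log axis) for each gene, in 3 panels, one per pair of stages, with the stage named first on top of the ratio; points are ratios, bars are 95% counting intervals, dotted lines mark 1.5-fold either way, red is called higher, blue lower, grey neither, and open points are not measured. Epgn lies at 0.417 and 0.398 at dpp42 over NP and over dpc16.

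Egfr had at least 20 UMIs in each of 7 layers in the comparisons with dpc16. In the order basal, cycling, spinous, granular, infundibulum, bulge and sebocyte, Egfr was 73.5, 59.7, 49.2, 46.6, 56.6, 59.3 and 52.3 CPM at NP. It was 48.8, 55.8, 24.2, 23.6, 35.2, 74.7 and 27.7 CPM at dpc16, and 98.5, 76.3, 46.2, 46.4, 51.9, 93.3 and 55.0 CPM at dpp42. Egfr was thus lower at dpc16 than at NP in 6 of 7 layers, all but the bulge, and higher at dpp42 than at dpc16 in 7 of 7. Among genes with at least 20 UMIs in each layer, 32.0% were lower in at least 6 of 7 layers at dpc16 than at NP, and 32.0% were higher in at least 6 of 7 at dpp42 than at dpc16, so this pattern was common. Tgfa was lower at dpc16 than at NP in 7 of 7 layers and higher at dpp42 than at dpc16 in 6 of 7, with at least 20 UMIs in 2 and 3 of them. It is thus not among the genes behind these shares. Over all keratinocytes, which include clusters 12 and 18, Tgfa was not lower at dpc16, at 7.74 CPM against 7.45 CPM at NP. The count of 6 layers was chosen after the values were seen.

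The dpc16 deficit of Egfr against NP was 2.03-fold (1.29 to 3.26) in spinous, 1.98-fold (1.28 to 3.11) in granular and 1.89-fold (1.22 to 2.86) in sebocyte cells. In basal cells it was 1.51-fold (1.05 to 2.14) over a changed mix of clusters, with cluster 5 holding 202 of 356 cells at dpc16 and cluster 3 holding 201 of 250 at NP. Within cluster 3 the deficit was 2.05-fold (1.11 to 3.89), and within cluster 5 it was 2.01-fold. The dpp42 excess over dpc16 was 2.02-fold (1.4 to 2.88) in basal, 1.91-fold (1.16 to 3.20) in spinous, 1.97-fold (1.23 to 3.17) in granular and 1.98-fold (1.34 to 2.91) in sebocyte cells.

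Erbb3 was also lower at dpc16 than at NP in 6 of 7 layers, most in spinous cells, at 28.4 CPM against 67.8 CPM, a 2.39-fold deficit (1.59 to 3.65). Erbb2 was lower at dpc16 in 6 of 7 layers, with fewer than 20 UMIs in 1 of them, and higher at dpp42 than at dpc16 in 6 of 7. In infundibulum cells Erbb2 was 106, 50.1 and 104 CPM at NP, dpc16 and dpp42, and in spinous cells 70.0, 35.9 and 50.9 CPM.

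Hbegf was lower at dpp42 than at dpc16 in 6 of 7 layers, where 19.1% of genes were lower in at least 6. In spinous cells it was 16.2 CPM at dpp42 against 77.6 CPM at dpc16, 4.80-fold lower (2.72 to 9.11), in basal cells 13.5 CPM against 48.2 CPM, 3.57-fold lower (1.66 to 9.13), and in bulge cells 181 CPM against 367 CPM, 2.03-fold lower (1.62 to 2.56). Against NP, Hbegf at dpp42 was lower by 3.87-fold (1.70 to 10.3) in basal and 3.36-fold (1.88 to 6.45) in spinous cells, whereas bulge cells were at 181 CPM against 191 CPM.

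Epgn was lower at dpp42 than at NP in 6 of 7 layers, with at least 20 UMIs in 5 of the 7. Of 1396 genes with at least 20 UMIs in each layer, to which Epgn does not belong, 17.7% were lower in at least 6. It was 96.5 CPM against 154 CPM in basal, 54.5 CPM against 125 CPM in cycling, 37.1 CPM against 156 CPM in granular cells, 4.20-fold lower (2.93 to 6.17), and 115 CPM against 210 CPM in bulge cells. The basal difference followed the mix of clusters: within cluster 3, Epgn at dpp42 was 178 CPM against 205 CPM at NP, a ratio of 0.869 (0.605 to 1.23). At dpc16 over NP the layers differed in direction. Spinous cells were at 86.0 CPM against 49.9 CPM and granular cells at 56.8 CPM against 156 CPM. Most of these granular cells took the spinous name at the finer clustering. In cluster 3 Epgn was 323 CPM at dpc16 against 205 CPM at NP, a ratio of 1.58 (1.25 to 2.0). In cluster 18 it was 1189, 808 and 545 CPM at NP, dpc16 and dpp42, over 19, 135 and 11 cells.

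Areg at dpp42 was lower in granular cells, at 73.2 CPM against 142 CPM at NP, 1.93-fold lower (1.46 to 2.58). In infundibulum cells it was 31.1 CPM at dpp42, from 3 UMIs in 33 cells, against 180 CPM at dpc16. Tgfa in granular cells was 19.6 CPM at dpp42 against 7.12 CPM at NP, a ratio of 2.75 (1.19 to 6.91) on 19 and 9 UMIs. This class changed in make-up: 9 of its 93 cells at NP, 12 of 78 at dpc16 and 13 of 59 at dpp42 kept the granular name at the finer clustering. In the cells that kept it, Tgfa was 54.0 CPM at dpp42 against 57.6 CPM at NP. In the other granular cells it was 7.03 CPM against 2.58 CPM, on 5 and 3 UMIs. Ereg in granular cells was 46.6, 115 and 92.8 CPM at NP, dpc16 and dpp42, a ratio of 2.47 (1.82 to 3.38) at dpc16 over NP on the few cells named above. It was 259, 500 and 332 CPM in the cells that kept the granular name and 27.6, 32.0 and 5.62 CPM in the others. The granular levels of Ereg and Tgfa thus also carry this mix.

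**Figure D5:**
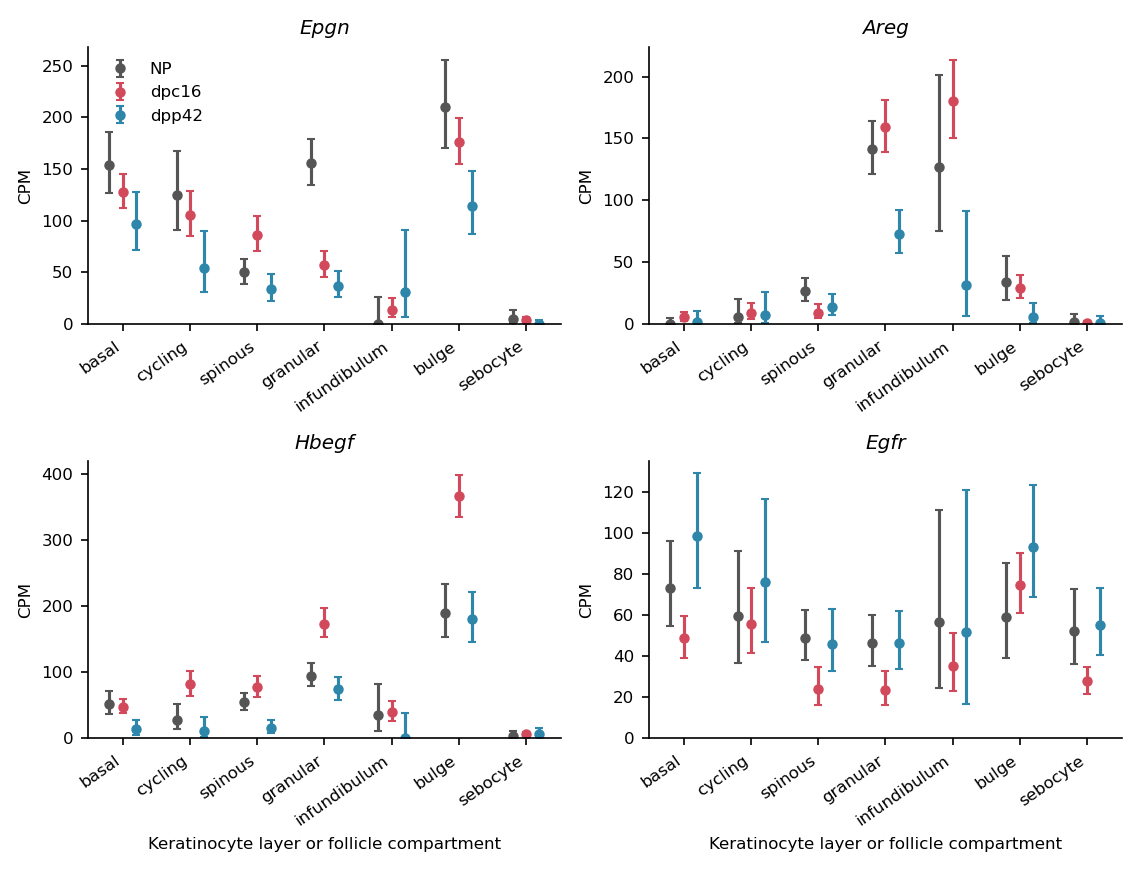
Level (CPM) of Epgn, Areg, Hbegf and Egfr in 7 keratinocyte layers and follicle compartments (horizontal axis) at NP, dpc16 and dpp42; points are 1 library each and bars are 95% counting intervals. Hbegf peaks in dpc16 bulge cells at 367 CPM, and Egfr is lowest at dpc16 in spinous and granular cells at 24.2 and 23.6 CPM.

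In fibroblasts, Egfr was the leading member, at 132, 61.6 and 85.2 CPM at NP, dpc16 and dpp42. At dpc16 over NP 5 members were measured and 2 were lower, none higher, against 15.7% lower and 6.09% higher among 8040 genes. Egfr was lower by 2.14-fold (1.47 to 3.03) and Btc by 4.37-fold (1.74 to 9.69), at 6.70 CPM against 29.3 CPM, on 32 and 8 UMIs. Different clusters held most fibroblasts, with cluster 27 holding 367 of 1079, the largest count, at dpc16 and cluster 1 holding 51 of 97 at NP. Within cluster 1, Egfr was 52.5 CPM at dpc16 against 157 CPM at NP. When each cell took its class from its own marker UMIs, 32 NP fibroblasts remained and neither call held, with log2 ratios of -0.75 for Egfr and -2.29 for Btc, against -1.12 and -2.19.

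At dpp42 over NP, Egfr alone was measured in fibroblasts, at a ratio of 0.647 (0.372 to 1.11), while 8.43% of 3796 genes were higher and 7.01% lower. At dpp42 over dpc16, 1 of 5 measured members was higher and 2 lower, against 20.6% higher and 4.76% lower of 8538 genes. Erbb2 was 34.1 CPM against 8.80 CPM, a ratio of 3.88 (1.73 to 7.85) on 10 and 42 UMIs. Hbegf was 3.41 CPM against 19.7 CPM, a ratio of 0.173 (0.00434 to 0.989) on 1 UMI at dpp42. Its log2 ratio of -1.95 turned to 0.26 with classes from each cell's marker UMIs and to 0.1 with cells thinned to 1000 UMIs. Epgn had no UMI at dpp42 and 13.4 CPM at dpc16, and was counted as lower on the observed 0. When 3 UMIs are allowed at dpp42 it was at least 1.31-fold lower, inside the 1.5-fold limit. At dpc16 the fibroblast levels of Hbegf and Epgn were 17.0% and 10.7% of those in keratinocytes, and 33 of the 64 Epgn UMIs lay in 3 cells.

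Blood endothelial Hbegf did not differ beyond counting error, at 314, 387 and 336 CPM at NP, dpc16 and dpp42. The ratio was 1.23 (0.873 to 1.78) at dpc16 over NP and 1.07 (0.731 to 1.59) at dpp42 over NP, intervals that leave room for differences of up to 1.78-fold and 1.59-fold.

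The genes around the receptors were followed from fixed lists, in keratinocytes. Of 6 genes of ligand release, 3 were lower and none higher at dpc16 than at NP, beside 21.9% lower and 8.90% higher over all genes. Adam17, the main protease that frees Areg, Hbegf and Tgfa, was 23.2 CPM against 50.7 CPM, Rhbdf2, which brings Adam17 to the cell surface, 29.8 CPM against 47.2 CPM, and Adam10, which cuts Btc, 26.9 CPM against 40.8 CPM. The median log2 ratio of the list was -0.48, against -0.15 over all genes. At dpp42 over dpc16, 2 of the 6 were higher, beside 22.0% of all genes, with Adam17 at 47.1 CPM against 23.2 CPM. None of the 6 was called at dpp42 over NP.

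Of 14 signal relay genes, 1 was lower at dpc16 than at NP and none was higher. Over all genes 21.9% were lower and 8.90% higher. The lower gene was Sos1, which loads RAS, at 10.4 CPM against 22.1 CPM. The median log2 ratio was -0.15 for the list and for all genes. None of the 14 was called at dpp42 over NP. Among 12 measured feedback inhibitors, 2 were higher and 2 lower at dpc16 than at NP, beside the same shares over all genes, with a median log2 ratio of -0.10. The MAP kinase phosphatase Dusp6 was 110 CPM against 44.5 CPM and Dusp4 17.1 CPM against 4.31 CPM, while the receptor signalling inhibitors Spry1 and Spry2 were 17.0 CPM against 34.1 CPM and 19.3 CPM against 34.9 CPM. Of 6 further family genes, Egf, Erbb4 and the neuregulins, Nrg4 alone was measured, at 24.9 CPM against 16.9 CPM and not called.

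Over all keratinocytes, 10 of 17 measured early response genes were higher at dpc16 than at NP and none lower. Of all genes 8.90% were higher and 21.9% lower. The median log2 ratio was 0.74, against -0.15 over all genes. The difference was smaller within basal, spinous and granular cells, with 4, 3 and 2 of 16 higher and 2, 1 and 2 lower. The medians there were 0.24, 0.04 and -0.10, against -0.23, -0.31 and -0.29 over all genes. Phlda1 was 383 CPM against 97.4 CPM, Ier3 422 CPM against 130 CPM and Fosl1 225 CPM against 78.2 CPM. Fosl1 was also a leading gene of cluster 18, which held 135 of 1816 keratinocytes at dpc16 and 19 of 1025 at NP. At dpp42, 15 of 17 were lower than at dpc16 and none higher, beside 8.40% lower and 22.0% higher over all genes. The median of the list was -1.21 on the log2 scale, against 0.17 over all genes. Against NP, 3 of 16 were lower at dpp42 and none higher, beside 3.08% lower and 4.42% higher over all genes, with Fosl1 at 35.9 CPM against 78.2 CPM. Heat shock genes moved the same way, with 8 of 9 higher at dpc16 than at NP and a median log2 ratio of 1.26, and their summed level was 6428, 16000 and 7070 CPM at NP, dpc16 and dpp42. Hspa1a was 3693 CPM at dpc16 against 844 CPM at NP. Haemoglobin RNA summed to 128, 375 and 124 CPM. These values moved with the dpc16 values of Hbegf and the receptors, and their part in those results was not tested. The heat shock genes were also higher in dpc16 fibroblasts, at 12114 CPM summed against 5421 CPM at NP, whereas the early response genes there were 2 higher and 3 lower of 17.

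As a description of shared layer patterns, each member was set against 6808 genes over 31 combinations of class and library, with Pearson's r of log2(CPM + 20), and 7 members are described. Areg was most like Blnk (0.870), Lipg (0.854) and Cldn4 (0.853), and Ereg most like Lypd5 (0.977), Serpina12 (0.977) and Hrnr (0.975). Hbegf was most like Btg3 (0.787), Arl5b (0.783) and Id4 (0.761), and Epgn most like Krt5 (0.881), Cxcl14 (0.863) and Cib2 (0.856). Btc was most like Vgll3 (0.836), Gng13 (0.814) and Sprr1b (0.804). Egfr was most like Irx2 (0.861), Fat1 (0.838) and Bmpr1a (0.802), and Erbb3 most like Lgals7 (0.922), Tmprss13 (0.918) and Mpzl2 (0.913). The combinations share libraries and cells of neighbouring layers, so r describes these libraries.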

How the data were processed

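The deposited files hold UMI counts per gene and barcode, 1 matrix per library, made by the authors with Cell Ranger 2.2.0 on the mm10 (GRCm38) genome, per the submitters' processing notes. The annotation release is not given in the sources used here. Positions are from GENCODE M21 and promoter letters from RefSeq. No normalised values were used. Library totals before filtering were 6031814 counts for NP, 21679047 for dpc16 and 5794940 for dpp42. Intervals and floors cover counting error only, and a few cells held many of the UMIs of some genes, so that the error between cells is larger than these intervals.

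Cells with at least 200 genes and at most 10% mitochondrial UMIs were kept. Clusters (scanpy 1.11.5, Python 3.11.15, 2000 variable genes, 30 principal components, 15 neighbours, Leiden resolution 1) were built without the genes of the lists except keratins and named from at least 3 detected markers. Cluster 8, led by haemoglobin genes, stayed outside every class. Scrublet marked 1, 2 and 1 cells at NP, dpc16 and dpp42, under 0.5%, so it was taken not to have worked and doublets were not removed.

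UMIs were summed per class and library and given as CPM with exact Poisson intervals. Ratios have exact conditional binomial intervals and shares Clopper-Pearson intervals, each at 95%. The ratio intervals alone were checked, on simulated Poisson sums. Such sums lack the clumping of UMIs in few cells, so the check says nothing about that error. Calls used the observed UMIs, and a fold against 0 UMIs is given at a floor of 3 UMIs. Log2 ratios have 0.5 UMIs added to each sum. With 1 library per stage no test was made. Ratios between stages were taken in classes of at least 30 cells per library, and levels are also given for smaller ones. Of each list up to 4 genes with the largest log2 ratio were eligible to be named. For each member with at least 200 UMIs the 3 genes with the highest r were named, among genes reaching 50 CPM and without mitochondrial, ribosomal, haemoglobin and predicted genes; those of Tgfa and Erbb2 are not reported here. The members and lists were chosen with earlier results of these data known. The alternatives changed the filters, classes, thinning, scaling and thresholds.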

Additional observations from a re-analysis of the deposited data

Results flagged for a closer look

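Epgn moved in opposite directions in the spinous and granular classes at dpc16 over NP. In spinous cells its log2 ratio was 0.78, a ratio of 1.72 (1.25 to 2.38), and in granular cells it was -1.45, a ratio of 0.365 (0.278 to 0.474). These classes are not cleanly separate layers, since most granular cells took the spinous name at the finer clustering. In the granular cells that took it, 84 at NP and 66 at dpc16, Epgn was 137 CPM at NP and 59.0 CPM at dpc16. In those that kept the granular name, 9 and 12 cells, it was 365 and 46.9 CPM. The difference between the classes was not tested, since each stage is 1 library.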

How the results depend on the processing

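There were 16 alternatives, 13 of them planned and 3 chosen after seeing the data. Of 1080 member values, 991 kept their call or stayed without one, 40 gained a call and 42 lost theirs. Another 7, all called as reported, turned round. A change of direction in a value without a call was not counted. Of 87 counts of called members, 72 stayed within 1.5 times the count reported. In keratinocytes at dpc16 over NP the 3 calls became 6 with cells thinned to 1000 UMIs, 5 with at most 5% mitochondrial UMIs, 5 with the mean of single-cell CPM and 0 with a ratio of at least 2. At dpp42 over NP the 4 calls became 2 with at most 5% mitochondrial UMIs and 2 with a ratio of at least 2, and at dpp42 over dpc16 the 5 calls became 2 with a ratio of at least 2. In fibroblasts at dpc16 over NP the 2 calls became 0 with classes from each cell's marker UMIs and 1 with thinned cells. At dpp42 over NP the count of 0 became 1 with Leiden resolution 2, 1 without the low-count filter and 1 with a ratio of 1.5 whatever the interval. At dpp42 over dpc16 the 3 calls became 1 with at most 5% mitochondrial UMIs, 1 with classes from marker UMIs and 0 with thinned cells. The log2 ratio of Btc turned round with at most 5% mitochondrial UMIs, to 1.7 in keratinocytes and 0.88 in all kept cells at dpc16 over NP and to 0.83 and 0.27 at dpp42 over NP, and to 0.02 in keratinocytes at dpc16 over NP with layers weighted equally. That limit left 80 of 93 granular cells at NP, 71 of 78 at dpc16 and 52 of 59 at dpp42. It also changed the mix of layers, leaving 24 of 102, 34 of 313 and 22 of 105 sebocytes in these libraries. Bulge cells left were 108 of 133 at NP and 201 of 390 at dpc16, and basal cells 203 of 250 and 196 of 356. The log2 ratio of Hbegf in fibroblasts at dpp42 over dpc16 turned round to 0.26 with classes from marker UMIs and to 0.1 with thinned cells. The cause was not tested. No paired analysis was possible because each stage has 1 library. Depth limits Btc, Tgfa and Ereg most, with 219, 245 and 352 UMIs in all kept cells, and the fibroblast values at dpp42 and NP, which rest on 112 and 97 cells.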

Other observations

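Classes with under 30 cells in a library entered no ratio between stages. In T, NK and innate lymphoid cells, 3 of 8 cells at NP held the 11 Areg UMIs, 12 of 24 cells at dpc16 held 122 UMIs, 53 of them in 1 cell, and 3 of 5 cells at dpp42 held 27 UMIs. In Schwann cells at NP, all 24 Areg UMIs lay in 1 of 6 cells. In cluster 8, led by haemoglobin genes with the upper follicle genes Sostdc1 and Plet1, Areg was 11.8, 113 and 24.4 CPM at NP, dpc16 and dpp42, on 2 UMIs at NP, and Erbb3 was 68.0 CPM over the 3 libraries.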
